A study of Mus musculus with 8 samples.

Results

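The interleukin 1 (IL-1) receptor family was followed through 6 genes, Il1rl1, Il18r1, Il18rap, Il1r1, Il1r2 and Il1rap, which encode the receptor chains for IL-33, IL-18 and IL-1. The rule takes the genes by what they encode, it was set with earlier results of these data known, and all 6 were among the 19826 genes with values. The cells were mouse regulatory T cells (Treg), CD4 T cells defined by the transcription factor Foxp3, sorted as CD4+ YFP+ from spleen and peripheral lymph nodes of untreated C57BL/6 mice. Both groups carried 1 Foxp3 YFP-Cre allele over an unmodified Foxp3 allele. Cre is made in cells that express the YFP-Cre allele, which the YFP+ sort selects, and not from the unmodified allele. The 4 WT libraries had 2 unmodified copies of Pdpk1 (Pdpk1 +/+) and the 4 libraries labelled Pdpk1 KO had 2 loxP-flanked copies (Pdpk1 FL/FL). Pdpk1 encodes PDK1, the kinase that activates AKT and related kinases downstream of PI3K. Nothing in the labels says how old the mice were or whether each library came from a separate mouse, so p-values here reflect only how these libraries vary, which may be technical.

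Receptors of this family work as pairs. A ligand-binding chain (ST2, encoded by Il1rl1, for IL-33; Il18r1 for IL-18; Il1r1 for IL-1) recruits an accessory chain (IL1RAP, encoded by Il1rap, for IL-33 and IL-1; Il18rap for IL-18), and their paired TIR domains recruit MyD88, IRAK kinases and TRAF6 to activate NF-kB and the JNK and p38 kinases. Il1r2 encodes a decoy that binds IL-1 but lacks a TIR domain. ST2 marks Treg of tissues and inflamed sites, where IL-33 supports their expansion, and the Il1rl1 gene also yields a secreted form of ST2 whose reads a whole-gene count does not separate from those of the membrane form.

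Of the 6 genes, 5 (Il1r2, Il1r1, Il1rl1, Il18r1 and Il18rap) lie on the plus strand of chromosome 1 in that order, from base 40074079 to base 40551705 of GRCm38, a span of 477.6 kb. The last 3 are immediate neighbours, and the end of Il1rl1 lies 136 bases before the start of Il18r1. Il1rap lies alone on chromosome 16 (bases 26581704 to 26730117, plus strand). The bases just upstream of the transcription starts of the 3 adjacent genes are shown because these 3 genes fell together, beside those of Il1rap, which was not past the threshold. The sequences are from RefSeq on GRCm38.p6, in which all 6 genes matched with 10 start sites between them. Each is on the plus strand, is limited to bases outside annotated exons within the 250 before the start, and has in capitals the letters GATAA, the core bound by GATA factors such as the ST2 regulator GATA3, and GTAAACA, a FoxO site, on either strand.
Il1rl1 first start (chr1:40429320-40429569): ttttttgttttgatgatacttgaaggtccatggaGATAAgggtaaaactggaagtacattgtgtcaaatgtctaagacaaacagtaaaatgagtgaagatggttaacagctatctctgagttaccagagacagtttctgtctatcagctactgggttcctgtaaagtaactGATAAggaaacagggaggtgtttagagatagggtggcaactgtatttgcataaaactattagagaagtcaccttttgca
Il1rl1 second start (chr1:40439379-40439626): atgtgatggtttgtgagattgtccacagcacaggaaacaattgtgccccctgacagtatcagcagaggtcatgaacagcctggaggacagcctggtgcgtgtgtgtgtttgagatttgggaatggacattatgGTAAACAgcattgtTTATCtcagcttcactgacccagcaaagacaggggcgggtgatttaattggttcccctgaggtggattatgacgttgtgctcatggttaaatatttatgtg
Il18r1 first start (chr1:40465416-40465551): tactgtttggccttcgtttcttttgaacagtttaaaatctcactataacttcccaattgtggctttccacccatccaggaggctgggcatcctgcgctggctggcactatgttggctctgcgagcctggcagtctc
Il18rap (chr1:40515112-40515361): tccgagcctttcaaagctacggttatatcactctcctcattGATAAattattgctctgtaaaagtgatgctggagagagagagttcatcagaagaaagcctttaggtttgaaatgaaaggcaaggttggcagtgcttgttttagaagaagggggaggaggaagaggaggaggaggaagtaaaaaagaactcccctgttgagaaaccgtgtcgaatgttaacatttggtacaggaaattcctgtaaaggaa
Il1rap (chr16:26581455-26581703): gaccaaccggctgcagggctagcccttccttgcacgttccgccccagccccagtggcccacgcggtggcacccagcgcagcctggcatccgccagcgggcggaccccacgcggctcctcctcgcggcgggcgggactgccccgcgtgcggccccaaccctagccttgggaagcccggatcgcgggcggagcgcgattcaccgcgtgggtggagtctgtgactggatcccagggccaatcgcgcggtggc
The Il18r1 stretch is the whole gap of 136 bases between Il1rl1 and Il18r1.

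Searched on both strands of windows of 300 bases (250 before and 50 after each start), GATAA was present at both Il1rl1 starts and at the starts of Il18rap and Il1r2, 4 of the 10 windows, against 25.4% of all 32851 RefSeq windows. GTAAACA was present in 1 of the 10 windows, that of the second Il1rl1 start, against 3.65% of all windows. TGTGGT, the Runx core, was found in 3 of the 10 windows (16.8% of all), and TTCNNNGAA, the STAT site, in 2 (8.3% of all). The kB consensus was found in 1 window (8.46% of all), and TGANTCA, the AP-1 site, in 0 (7.81% of all). The GATAA and GTAAACA matches at the second Il1rl1 start share no bases. In base composition the 4 windows shown for the 3 adjacent genes had between 38.7% and 44.7% G and C and between 1 and 5 CpG pairs, and the other 2 windows of these genes, both of Il18r1, had 51.3% and 57% with 7 and 8 CpG pairs. The window of Il1rap had 72% G and C and 33 CpG pairs, while the median of all windows was 52.7% and 7. That of Il1r2 had 51.3% with 16 CpG pairs, and those of Il1r1 had 49.3% and 63.3% with 5 and 14. Matches describe these letters only and were not tested for binding.

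Library depth ran from 17448095 to 26299577 reads, recovered from the deposited values as described under processing, and every value below is a normalized count unless stated. Whole-gene Pdpk1 counts ran from 1923.3 to 2599.6 in WT and from 1656.4 to 2505.5 in the libraries labelled Pdpk1 KO (log2 change -0.17, exact permutation p = 0.286). Reads of all exons are summed there and the labels do not name the floxed exons, so this value does not check the labels. Foxp3 ran from 4418 to 6097.6 in WT and from 4707.5 to 6340.5 in Pdpk1 KO (exact permutation p = 0.6). Of 10 Treg markers, 2 were higher (Il2ra and Gpr83) and 4 lower (Ikzf2, Ikzf4, Izumo1r and Nrp1) in limma, named after their values were seen. Over all genes tested 4.41% were higher and 5.06% lower. The summed level of the 10 ran from 64627.4 to 74554.1 in WT and from 65071.7 to 74194 in Pdpk1 KO, a sum in which rises and falls offset each other. Of 5 CD4 T cell markers 0 passed in limma or edgeR and 3 were lower in DESeq2 (3 lower at an unadjusted limma p under 0.05). These are bulk values, so fewer cells with a transcript and less of it per cell cannot be told apart.

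In limma with Benjamini-Hochberg adjustment over 13847 genes, 3 of the 5 receptor genes that passed the filter on low values were lower in Pdpk1 KO, 0 were higher and 2 were not past the threshold of 0.05. Over all genes tested 9.47% were called, 5.06% lower and 4.41% higher. On the recovered reads, edgeR and DESeq2 each called the same number of the 5 in each direction, 3 lower and 0 higher. Over all genes edgeR called 9.06% (4.73% lower, 4.33% higher) and DESeq2 called 13.2% (6.85% lower, 6.39% higher). The 4 WT and 4 Pdpk1 KO libraries did not overlap for 3 of the 5, all lower, against 15.3% of all genes in either direction and 8.24% lower. The median log2 change of the 5 was -1.38, against -0.01 over all genes. The 3 that fell were Il1rl1, Il18r1 and Il18rap, the adjacent genes. Il1r1 did not pass the filter, which asked for a count of at least 10 in at least 4 libraries, and is described by its reads below. Log2 changes are Pdpk1 KO minus WT on the scale log2(normalized count + 1). For low or scattered genes they depend on this scale and can be smaller or larger than those of edgeR and DESeq2.

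Il1rl1, the ligand-binding chain for IL-33 (ENSMUSG00000026069, chromosome 1, 40429570 to 40465415), had the largest change of the 5 tested. It stood at 456.6, 336.7, 232.9 and 429.5 in WT replicates 1 to 4 and at 21.4, 43.8, 33.7 and 26.5 in Pdpk1 KO replicates 1 to 4. The lowest WT library was far above the highest Pdpk1 KO library, and no library of either group came near the other. Means were 364 ± 101 and 31.3 ± 9.73 (SD, n = 4 each), the second being 8.61% of the first. The log2 change was -3.50 ± 0.30 (SE, 95% interval -4.14 to -2.85, limma adjusted p = 3.49e-06), or 11.3-fold lower (95% interval 7.21 to 17.7). By log2 change it ranked 36 of the 13847 genes, counted from the lowest. In reads, the 4 Pdpk1 KO libraries held 124 for Il1rl1 together, against 1470 in WT.

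Il18r1, the ligand-binding chain for IL-18 (ENSMUSG00000026070, chromosome 1, 40465552 to 40500854), fell less but with the smallest spread. Its counts were 1820.6, 2015.8, 1867.9 and 1911.9 in WT and 717.8, 721, 772.4 and 711.7 in Pdpk1 KO. Every library of a group lay close to its mean, with a coefficient of variation of 4.38% in WT and 3.84% in Pdpk1 KO, and the groups did not overlap. The mean was 1904 ± 83.3 in WT and 731 ± 28.0 in Pdpk1 KO (SD, n = 4 each). Its log2 change was -1.38 ± 0.09 (SE, 95% interval -1.58 to -1.18, limma adjusted p = 6.91e-07). Pdpk1 KO libraries therefore still held 38.4% of the WT level, and Il18r1 ranked 6 of 13847 genes by adjusted p.

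Il18rap, the accessory chain that completes the IL-18 receptor (ENSMUSG00000026068, chromosome 1, 40515362 to 40551705), also fell, with more spread. WT replicates 1 to 4 had 271.7, 182.4, 137.2 and 213.4, and Pdpk1 KO replicates 1 to 4 had 26.1, 19.7, 89.8 and 11.9. Replicate 3 of Pdpk1 KO stood well above the other 3 of its group, yet below every WT library. The means were 201 ± 56.5 and 36.9 ± 35.8 (SD, n = 4 each), and the log2 change was -2.78 ± 0.48 (SE, 95% interval -3.82 to -1.75, limma adjusted p = 0.00171). When the 3 libraries with most macrophage marker RNA were left out, that replicate among them, the log2 change was -3.42 (limma adjusted p = 0.00197). Smaller changes were -2.46 in both edgeR (adjusted p = 0.00564) and DESeq2 (adjusted p = 6.73e-06), and -2.40 without replicate 4 of Pdpk1 KO (limma adjusted p = 0.00399).

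**Figure D1:**
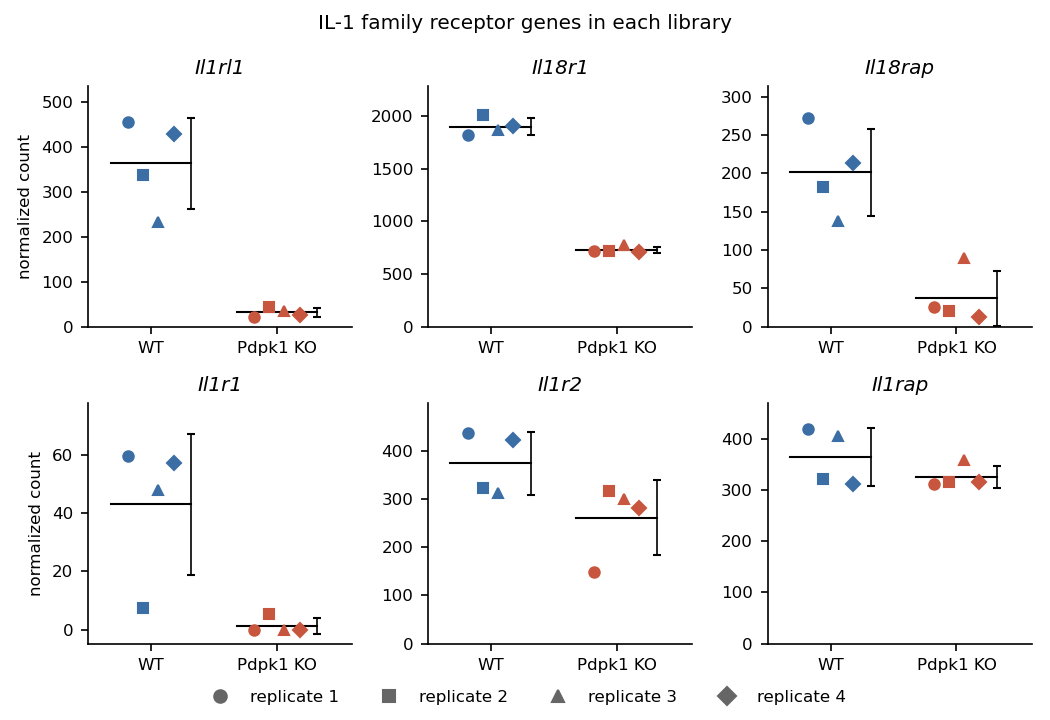
Normalized counts (y axis, linear) of the 6 receptor genes in the 4 WT and 4 Pdpk1 KO libraries, with symbols for the replicate number, a line at the group mean and a bar of 1 SD either side. Il1rl1, Il18r1, Il18rap and Il1r1 show no overlap between groups, while Il1r2 and Il1rap overlap.

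Il1r1, the signalling receptor for IL-1 (ENSMUSG00000026072, chromosome 1, 40225080 to 40317257), was scarce in both groups. It had 53, 7, 52 and 65 reads in WT replicates 1 to 4 and 0, 5, 0 and 0 reads in Pdpk1 KO replicates 1 to 4. Replicate 2 of WT was close to replicate 2 of Pdpk1 KO, at 7.3 against 5.5 normalized counts, while the other WT libraries had between 47.9 and 59.7. Where none were read, up to 3 reads remain possible from counting error alone, which in those libraries is a normalized count of 2.56 to 3.37. The mean log2 difference was -4.44 with an exact two-sided permutation p = 0.0286 (unadjusted), the smallest that 4 against 4 libraries allow. Its size rests on the pseudocount of 1 and was -2.74 with a pseudocount of 5 and -5.18 with 0.5. Fitted without the filter, Il1r1 had a limma adjusted p = 0.005.

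Il1r2, the decoy receptor for IL-1 (ENSMUSG00000026073, chromosome 1, 40074079 to 40125231), was not past the threshold. WT libraries had 438.5, 324.2, 313 and 422.4, and Pdpk1 KO libraries had 148, 316.7, 299.8 and 282.5. The groups overlapped by 1 pair of libraries, and replicate 1 of Pdpk1 KO was the lowest of all 8. The log2 change was -0.56 ± 0.23 (SE, 95% interval -1.05 to -0.07, limma adjusted p = 0.155, exact permutation p = 0.0571), and -0.31 without replicate 1 of Pdpk1 KO (limma adjusted p = 0.348). The annotation places the antisense gene Gm16894 and the gene Gm37347 over Il1r2. Their counts were at most 8.8 and 17.6, and whether the counting used strand is not given in the sources used here.

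Il1rap, the accessory chain shared by the IL-33 and IL-1 receptors (ENSMUSG00000022514), stayed nearest to its WT level. Its counts were 420.5, 322.1, 406.9 and 311.8 in WT and 312.8, 315.6, 359.3 and 315.8 in Pdpk1 KO, with full overlap. The log2 change was -0.15 (95% interval -0.49 to 0.18, limma adjusted p = 0.618, exact permutation p = 0.257), so the data allow anything from 1.40-fold lower to a small rise.

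Compared per length, as normalized counts per kb of annotated exon, the 6 genes differed widely in level and their order changed. WT Treg had 395 ± 17.3 for Il18r1 and 196 ± 34.1 for Il1r2 (SD, n = 4 each), each above the next gene in every library. Below them Il1rl1 at 52.8 ± 14.7, Il1rap at 32.2 ± 4.96 and Il18rap at 29.8 ± 8.36 overlapped their neighbours in this order, and Il1r1 came last at 6.76 ± 3.83. In the Pdpk1 KO libraries Il18r1 at 152 ± 5.82 overlapped Il1r2 at 137 ± 40.4, with Il18r1 above in 2 of the 4 libraries. Il1rap at 28.7 ± 1.96 now stood above both Il18rap at 5.46 ± 5.30 and Il1rl1 at 4.55 ± 1.41 in all 4 libraries, and Il1r1 was at 0.22 ± 0.43. Exon lengths here are unions over all annotated transcripts, so a gene whose cells use a short form is understated.

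Whether 2 chains changed unequally was tested on their ratio in each library, for the 3 of 5 chosen pairs in which both genes passed the filter, with p from all 70 assignments of the libraries to 2 groups (exact permutation, two-sided) and adjusted over the 3. The ratio of Il1rl1 to Il1rap, the 2 chains of the IL-33 receptor, was 1.09, 1.05, 0.573 and 1.38 in WT and 0.0714, 0.142, 0.0963 and 0.0867 in Pdpk1 KO. In log2 it differed by -3.34 between groups (exact permutation p = 0.0286, the smallest possible, adjusted p = 0.0429), lower in 4 of 4 Pdpk1 KO libraries than in any WT library. Il1rl1 also fell further than its neighbour Il18r1. Their log2 ratio was -2.43 ± 0.45 in WT and -4.55 ± 0.42 in Pdpk1 KO, a difference of -2.12 (exact permutation p = 0.0286, adjusted p = 0.0429) with no overlap. For the IL-18 receptor the log2 ratio of Il18r1 to Il18rap was 2.74, 3.46, 3.76 and 3.16 in WT and 4.73, 5.12, 3.09 and 5.78 in Pdpk1 KO. In Pdpk1 KO, replicates 1, 2 and 4 were above all of WT and replicate 3 was within it. The difference of 1.40 was not past the threshold (exact permutation p = 0.114, adjusted p = 0.114), and ran from 1.04 (without replicate 4 of Pdpk1 KO) to 1.93 (without its replicate 3) when single libraries were left out. It was 2.04 without the 3 macrophage-high libraries named later.

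**Figure D2:**
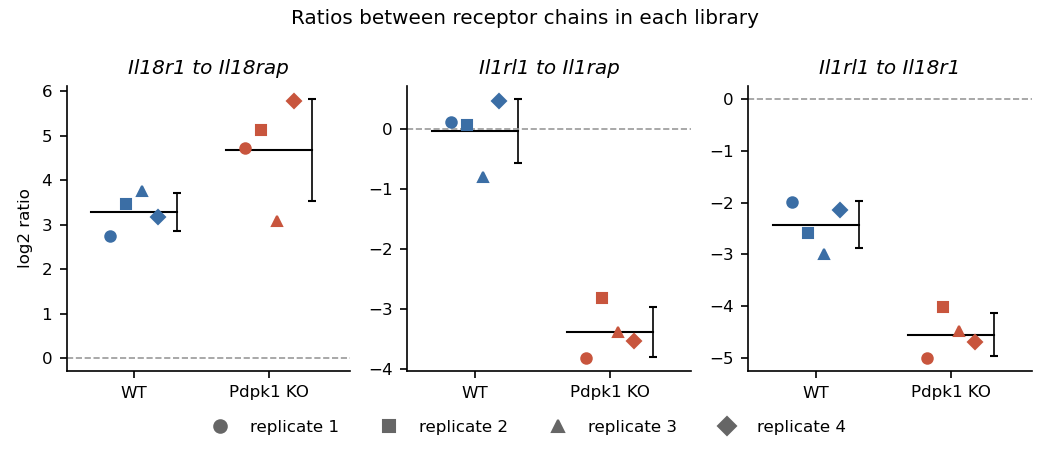
Log2 ratio between the normalized counts + 1 of 2 receptor chains (y axis) in each of the 4 WT and 4 Pdpk1 KO libraries, with the group mean as a line and 1 SD as a bar. The ratios of Il1rl1 to Il1rap and to Il18r1 do not overlap between groups, whereas in the ratio of Il18r1 to Il18rap replicate 3 of Pdpk1 KO (3.09) lies among the WT libraries.

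Neighbours of the receptor cluster were examined next. Within 1 Mb of it, 7 other protein-coding genes were tested, and 0 passed in limma, edgeR or DESeq2, with 3 higher and 1 lower at an unadjusted limma p under 0.05, against 9.47% of all genes called. Rpl31, a ribosomal protein gene, was past the threshold without replicate 1 of Pdpk1 KO (0.48, limma adjusted p = 0.0409) and with the replicate block (adjusted p = 0.00167), as was Map4k4 with the block (adjusted p = 0.0363). Il1rl2, the receptor chain for IL-36 that lies between Il1r1 and Il1rl1, had 59.7, 50, 18.4 and 22 in WT and 103.3, 87.7, 40.4 and 66.6 in Pdpk1 KO. Its log2 change was 1.06 (95% interval 0.08 to 2.03, limma adjusted p = 0.177), with an interval on the other side of 0 from that of its neighbour Il1rl1. The 6 others all lie before Il1r2, and the nearest of them, the kinase gene Map4k4, was at a log2 change of 0.24 (limma adjusted p = 0.168). Cnot11, Rnf149, Rpl31, Npas2 and Tbc1d8, farther out, were at -0.07, -0.26, 0.37, 0.65 and 0.29.

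**Figure D3:**
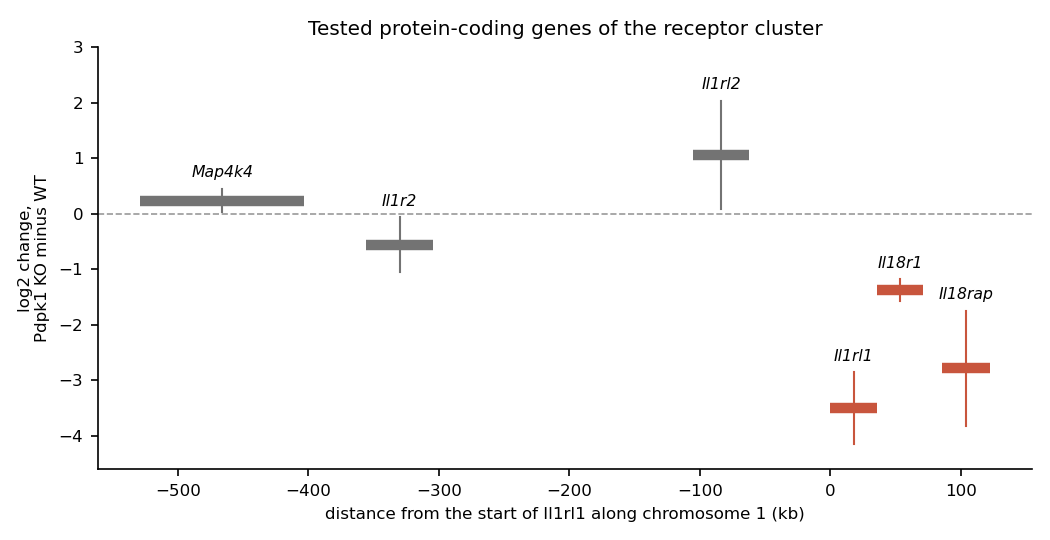
Log2 change of Pdpk1 KO against WT (y axis) for the tested protein-coding genes of the cluster and its nearest tested neighbour, placed by distance from the start of Il1rl1 in kb (x axis). Thick bars span each gene, thin lines are 95% intervals and red marks an adjusted p under 0.05 in limma. The 3 red genes Il1rl1, Il18r1 and Il18rap are adjacent, and Il1rl2, Il1r2 and Map4k4 are not past the threshold.

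Genes most like each receptor gene over the 8 libraries were taken as the 3 of 10579 well-measured genes (mean of at least 50) with the smallest root mean square difference of mean-centred log2 values, a measure that follows both the difference between groups and the spread within them. Il1rl1 lay nearest to Itgae, the CD103 integrin chain (0.339), Asb2, a ubiquitin ligase subunit (0.367), and Ccr2, a chemokine receptor (0.41). Asb2, for example, went from 563 ± 118 to 67.8 ± 22.0 (SD, n = 4 each). Because all these genes were picked on the same values, whether they changed follows from the receptor gene they match and is not a separate result. Il18r1 lay nearest to Endod1 (0.142), Arc (0.145) and Dtx1, the Notch pathway ubiquitin ligase Deltex (0.169). Dtx1 fell from 9967 ± 1218 to 3649 ± 371. Il18rap was less closely matched, by Naip6 (0.565), Rnase4 (0.57) and the interleukin 9 receptor gene Il9r (0.596). Naip6 has near-identical copies, so its count is uncertain. For Il1r2 they were She (0.149), Sh3gl3 (0.152) and Pam (0.191), and for Il1rap Tbck (0.0874), L3mbtl2 (0.0875) and Zfp719 (0.0879), none of these past the threshold in limma.

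Ligands of the family were low in these libraries. Of 14 ligands and antagonists listed, 4 had values and 2 passed the filter, and neither passed the test in limma, edgeR or DESeq2 (1 lower at an unadjusted limma p under 0.05). Il18 ran from 3.5 to 24.8 in WT and from 1.1 to 38.4 in Pdpk1 KO. The IL-1 receptor antagonist gene Il1rn had 11.5 to 19.2 in WT and 0 to 6.7 in Pdpk1 KO (limma adjusted p = 0.101). Il1a and Il1b did not pass the filter, with at most 13.2 and 48.2. The highest values of Il18 and Il1b were in replicate 2 of Pdpk1 KO, the library highest in macrophage markers (mean log2 level 7.76). Whether the 2 are linked was not tested. Among other receptors and inhibitors, 0 of 3 tested passed in limma, edgeR or DESeq2 (1 higher at an unadjusted limma p under 0.05). Sigirr, an inhibitory receptor of the family, was abundant at 2370 ± 164 in WT and 2185 ± 56.5 in Pdpk1 KO, and Il18bp, the soluble IL-18 inhibitor, was at 78.9 ± 15.1 and 102 ± 31.0 (SD, n = 4 each).

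Counted in either direction, signalling genes of the MyD88 and IRAK relay were called at about the share of all genes, which was 9.47% in limma. Of 19 tested genes of the MyD88 and IRAK relay, 2 were higher and 0 lower in limma (median 0.06 on the log2 scale). Over all genes tested 4.41% were higher and 5.06% lower. In edgeR 2 of the 19 were higher and in DESeq2 3, with 0 lower in both. At an unadjusted limma p under 0.05, 4 were higher and 2 lower. Traf6, the ubiquitin ligase downstream of the IRAK kinases, rose from 1736.1, 1868.9, 1531.9 and 1539.5 in WT to 2914.2, 2705.5, 2434 and 2427.9 in Pdpk1 KO (log2 change 0.65, limma adjusted p = 0.000753). All Pdpk1 KO values of Traf6 lay above all WT values. Peli1, another ubiquitin ligase of this relay, rose by 0.33 (limma adjusted p = 0.0273), but its call was lost with the macrophage covariate (0.23, adjusted p = 0.358), without the 3 macrophage-high libraries (0.36, adjusted p = 0.214) and without any of 5 single libraries (WT replicates 1, 3 and 4 and Pdpk1 KO replicates 2 and 3, 0.30 to 0.33, adjusted p = 0.0576 to 0.0799). The adaptor gene Myd88 itself was at -0.16 (limma adjusted p = 0.371), a gene named after its value was seen.

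Of 13 NF-kB subunits and inhibitors, 4 were lower and 0 higher in limma, with a median of -0.25. Over all genes tested 5.06% were lower and 4.41% higher. The inhibitor gene Nfkbie fell from 1185 ± 89.7 to 665 ± 63.7 (SD, n = 4 each, limma adjusted p = 0.00023), Nfkbid by 0.91, Bcl3 by 0.44 and Relb by 0.33 on the log2 scale. Relb lost its call without any 1 of 7 libraries, all but replicate 4 of Pdpk1 KO (-0.35 to -0.28, adjusted p = 0.0504 to 0.101). Adding the macrophage covariate left 1 lower gene in the list, as did dropping the 3 macrophage-high libraries. In these 2 settings the log2 changes without a call were -0.80 and -0.50 for Nfkbid, -0.37 and -0.39 for Bcl3, and -0.38 and -0.31 for Relb. Of 10 JNK and p38 pathway genes, 1 was lower and 0 higher in limma (median -0.09, 1 higher and 2 lower at an unadjusted p under 0.05), again about the share of all genes. The lower gene was the p38 substrate gene Mapkapk3, from 2619 ± 166 to 1716 ± 88.2 (limma adjusted p = 0.00048). edgeR called 0 higher and DESeq2 called 1, the kinase gene Map2k7, named after its value was seen (0.30, limma adjusted p = 0.0564). In limma 1 gene was also higher with the minimum of 50, with the replicate block and without replicate 1 of Pdpk1 KO.

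Genes found with these receptors in effector Treg were counted in 3 further lists. The lists were drawn up with earlier results of these data known, so their counts are descriptions. Over all genes tested 5.06% were lower and 4.41% higher in limma. Among genes of ST2-positive Treg, 8 of 14 were lower and 0 higher (median -1.16 on the log2 scale). They included Maf (-2.35), Ikzf2, which encodes Helios (-1.13), the chemokine receptor gene Ccr8 (-1.87) and the nuclear receptor gene Rora (-1.18). Ccr8 went from 348 ± 47.3 to 95.5 ± 20.1 and Rora from 770 ± 60.8 to 342 ± 59.4 (SD, n = 4 each). Gata3, the factor that acts at the ST2 locus, was lower by a smaller amount, at 3050 ± 327 and 2175 ± 284 (log2 change -0.49, limma adjusted p = 0.0118), a gene named after its value was seen.

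Among type 1 genes that accompany the IL-18 receptor, 5 of 10 were lower and 1 higher (median -0.70). Cxcr3, which encodes a chemokine receptor, was at 881 ± 99.3 in WT and fell to 146 ± 68.1 (SD, n = 4 each). Il12rb1, a chain of the IL-12 receptor, fell by 1.08 on the log2 scale. Il12rb2, which encodes the other chain, went the opposite way and was not past the threshold (log2 change 2.59, limma adjusted p = 0.0703). Its counts were low, 0 to 11.3 in WT and 14.6 to 54.8 in Pdpk1 KO, and it was named after its values were seen. Tbx21, which encodes T-bet, had a log2 change of -1.20 (limma adjusted p = 0.0144). Tbx21 was at 205.2 in WT replicate 1, against 109.6 to 117.8 in the other WT libraries, and without that library was not past the threshold (-0.99, limma adjusted p = 0.055), when 3 genes of the list were lower. The higher gene was Stat4 (0.31, limma adjusted p = 0.0499), and between 0 and 3 genes were higher over the alternatives. Adding the macrophage covariate, or dropping the 3 macrophage-high libraries, left 2 genes of the list lower and 0 higher. Il12rb1 was then at -0.66 and -0.91 and Tbx21 at -0.94 and -1.26, not past the threshold. Among type 17 genes that accompany the IL-1 receptor, 3 of 4 were lower and 0 higher (median -1.85). Among them were the chemokine receptor gene Ccr6, from 367 ± 72.7 to 97.6 ± 23.4, and Ahr, which encodes the aryl hydrocarbon receptor, from 619 ± 105 to 248 ± 80.5 (SD, n = 4 each).

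**Figure D4:**
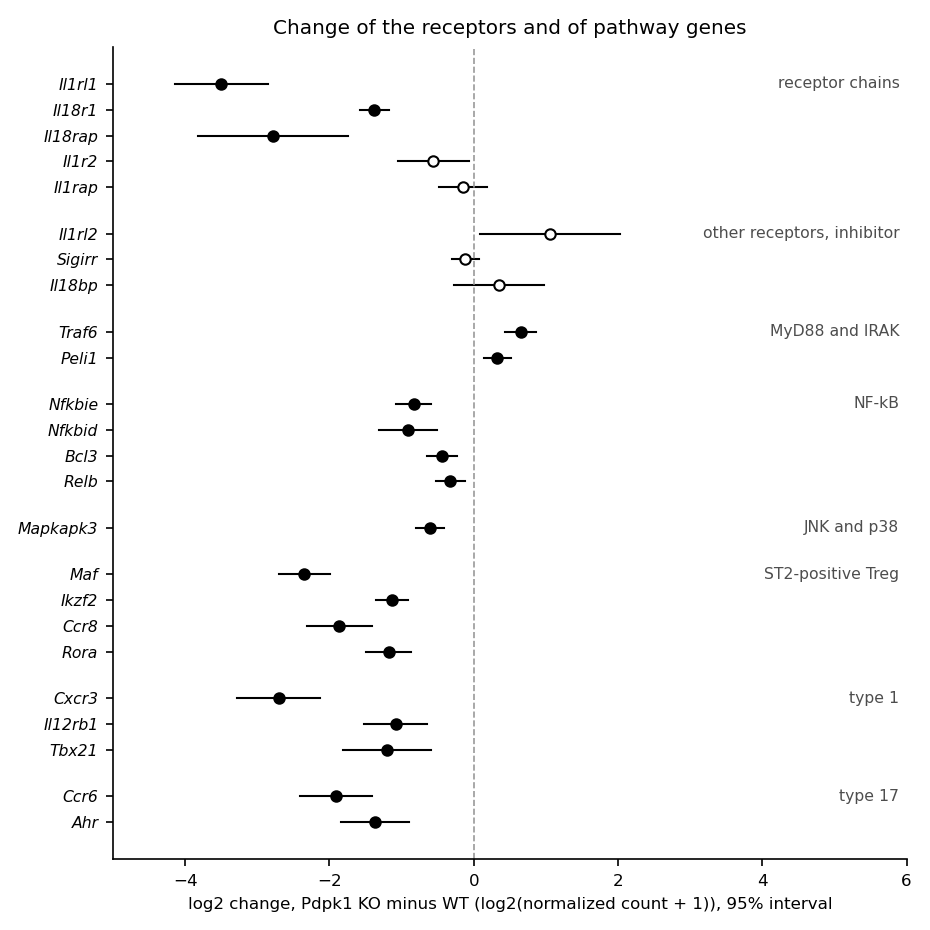
Log2 change of Pdpk1 KO against WT (x axis) with its 95% interval from limma for the tested receptor chains, the other family receptors and inhibitor, and named genes of each pathway list. Filled points have an adjusted p under 0.05. Il1rl1 at -3.50 lies farthest to the left of the genes drawn, while Traf6 at 0.65 and Peli1 at 0.33 are the filled points right of 0.

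Markers of other cells that carry these receptors were examined beside the results. Neutrophils carry much Il1r2. Of 10 neutrophil markers 3 had values, summing to between 0 and 23.9 in WT and between 0 and 18.6 in Pdpk1 KO, with 0 of them passing the filter. Mast cells and basophils carry ST2, as do group 2 innate lymphoid cells. Of 10 mast cell and basophil markers 3 had values, summing to 38.7 to 106.3 in WT and 67.9 to 107.1 in Pdpk1 KO, and the defining protease gene Cpa3 was at most 27.2. Of 6 innate lymphoid markers 4 had values, summing to 31.3 to 102.6 and 34 to 74.1, with Il13 at 0 in every Pdpk1 KO library. Natural killer cells carry the IL-18 receptor. Of their 10 markers 5 had values, summing to 228.3 to 338.8 and 321.7 to 456.9, mostly Prf1 (134.4 to 225.5 and 246.6 to 352.5, limma adjusted p = 0.101), and the defining gene Ncr1 was at 0 in 5 of the 8 libraries and at most 11.5. Of the tested markers of these 3 kinds of cell, 0 of 2, 0 of 1 and 0 of 3 passed in limma, edgeR or DESeq2 (0, 0 and 1 higher at an unadjusted limma p under 0.05). Dendritic cell markers summed to 12.4 to 98.4 in WT and 20.5 to 64 in Pdpk1 KO (0 of 1 tested passed in limma, edgeR or DESeq2, and 0 at an unadjusted p under 0.05), CD8 markers to 268.3 to 511.9 and 365 to 528.2 (0 of 2 in those tools, 1 higher unadjusted). B cell markers summed to 354 to 527.8 in WT and 157.3 to 346.3 in Pdpk1 KO, a sum made mostly of Cd79b. Of 2 tested, 1 was lower, Cd79b (367 ± 73.1 and 165 ± 43.7, SD, n = 4 each, limma adjusted p = 0.00407). The other, Cd79a, went the opposite way and was not past the threshold (48.2 ± 13.3 and 83.2 ± 31.6, log2 change 0.73, limma adjusted p = 0.258). The part of these cells in the results was not tested.

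Macrophage markers moved with the groups. Of 19 tested, 9 were higher in Pdpk1 KO and 2 lower in limma, the latter being Cybb and Axl, against 4.41% higher and 5.06% lower over all genes. The 20 markers summed to 2189.2 to 3452.1 in WT and 2280.2 to 6590.1 in Pdpk1 KO, or to 341.6 to 1757.3 and 1716.9 to 5696 without Cybb and Axl, a pair left out after their values were seen. The defining marker Csf1r was above 0 in every library. The 3 libraries highest in the 19 tested markers were replicate 2 of WT and replicates 2 and 3 of Pdpk1 KO. With their mean as a covariate, Il1rl1, Il18r1 and Il18rap were at -3.70, -1.46 and -2.96 (limma adjusted p = 0.000118, 2.13e-05 and 0.0213), where 3.91% of all genes were called (2.2% lower, 1.71% higher). Without those 3 libraries they were at -3.85, -1.38 and -3.42 (limma adjusted p = 0.000301, 0.000324 and 0.00197).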

How the data were processed

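Polyadenylated RNA was sequenced in 8 libraries, 4 WT and 4 labelled Pdpk1 KO, grouped by the labels' titles. The deposited values are a normalized signal per gene: the authors scaled read counts by DESeq2 size factors, going by the deposited table's name. Tools listed in the submitters' processing notes, with no roles or settings, were STAR 2.7.6a, Trimmomatic 0.39, featureCounts in Subread 2.0.1, SAMtools 1.11 and DESeq2 1.21, and the build was GRCm38. Every value was a whole multiple of its library's smallest value (100% within 0.001), which gave whole reads and depth; the smallest total of a listed gene was 11 reads. Symbols, positions and exon lengths came from GENCODE M21 on GRCm38 (19775 IDs matched, 51 did not). No molecular identifiers are recorded, so floors cover counting error only. Replicates were not duplicates (chi-square per degree of freedom 13.8 or more).

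Genes with a value of at least 10 in at least 4 libraries (13847) were compared with limma 3.58.1 in R 4.3.3 (log2(value + 1), eBayes with trend), Benjamini-Hochberg threshold 0.05. Alternatives were other pseudocounts, filters and scalings, edgeR 4.0.16 and DESeq2 1.42.0 on recovered reads (1254 and 1762 genes called, against 1311 in limma), a replicate block, a macrophage covariate and left-out libraries. All 3 tools were first tested on simulated data. The members and lists were chosen with earlier results of these data known. Named genes were the 6 receptor genes, up to 4 called genes per list by adjusted p (or the 2 most abundant), tested neighbours within 1 Mb, and the 3 most alike genes, with Pdpk1 and Foxp3 as checks; some genes that this rule takes are not reported here.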

Additional observations from a re-analysis of the deposited data

Results flagged for a closer look

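A library was picked out where its gap to the nearest other library of its group of 4 was, as a share of the group's range, above Dixon's 95% critical value, which chance gives in about 1 of 20 groups. Of 110 groups examined 7 held such a library, against 5.5 expected by chance. Among the receptor genes these were replicate 3 of Pdpk1 KO for Il18r1 (772.4, the others 711.7 to 721) and for Il1rap (359.3, the others 312.8 to 315.8), and replicate 2 of Pdpk1 KO for Il1r1 (5.48, the others 0). Replicate 3 of Pdpk1 KO also stood apart for Rnase4 (62.9, the others 25.2 to 29), one of the genes most like Il18rap. Rnase4 was picked for following Il18rap, itself high in that replicate (89.8), so this flag is not a separate result. Among pathway genes, WT replicate 1 stood apart for Maf (8326.3, the others 5661.1 to 6111) and Tbx21 (205.2, the others 109.6 to 117.8), and WT replicate 2 for Peli1 (8109.2, the others 6943.2 to 7099.6).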

How the results depend on the processing

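Il1rl1, Il18r1 and Il18rap kept their direction and call under all 19 alternatives, with adjusted p of at most 0.000301, 0.000324 and 0.0213. Il1r2 ranged from -0.92 to -0.31 and Il1rap from -0.26 to -0.03 in log2, never past the threshold. Without a filter 4 receptor genes passed, Il1r1 being the added one, and with a pseudocount of 5 Il1r1 was at -2.74. Over all genes, 611 were higher and 700 lower, against 237 and 305 with the macrophage covariate and 167 and 305 without the 3 libraries highest in its markers. Leaving out 1 library gave 389 to 588 higher and 495 to 724 lower, with 389 without WT replicate 4 and 395 without Pdpk1 KO replicate 3. Signs turned, with no call in either setting, for Il18 (0.01 in edgeR, 0.01 in DESeq2), Zfp719 (0.09 with the covariate), and on leaving out 1 library for Foxp3 (-0.01 to 0.17), Il18 (-1.39 to 0.02) and Tbc1d8 (-0.27 to 1.53). The causes were not tested. Same-numbered libraries of the 2 groups had correlations of deviations of 0.217, 0.092, 0.048 and 0.113. Those with different numbers ran from -0.156 to 0.109. WT replicate 3 and Pdpk1 KO replicate 2 correlated best with each other (0.109), and every other library correlated best with its own number. Whether same-numbered libraries were prepared together is not given in the labels and was not tested, and the main comparison did not use the numbers. With the replicate block 1243 genes were higher and 1292 lower, and limma adjusted p was 8.62e-07 for Il1rl1, 3.39e-08 for Il18r1 and 0.000319 for Il18rap. For the ratios the exact permutation p with the block was 0.125 for Il1rl1 to Il1rap and to Il18r1, and 0.25 for Il18r1 to Il18rap. The smallest p that 4 blocks allow is 0.125, so no ratio could pass the threshold there. Few reads limit Il1r1, Il1rl2 and the ligands.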
